A study of Mus musculus with 6 samples.

Results

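Synaptic vesicle and exocytosis genes encode the proteins with which a neuron or endocrine cell stores a transmitter or peptide in vesicles and releases it when calcium enters. A total of 78 such genes, of 19938 genes with a probe set of their own, were chosen by gene symbol alone: synaptotagmins (Syt), syntaxins (Stx), syntaxin-binding proteins (Stxbp), VAMP and SNAP proteins, complexins, NSF and its attachment proteins, Munc13 (Unc13), RIM (Rims), Bassoon and Piccolo, synapsins, synaptophysins, SV2 proteins and granins. The symbols also take in syntaxins of the Golgi, endosomes, lysosomes and endoplasmic reticulum. Where a gene had several probe sets, the one with the highest mean stood for it. RNA of these genes was measured in N2A, a neuroblastoma cell line of the mouse, to ask which of them respond to depletion of Dali, a long non-coding RNA transcribed beside the transcription factor gene Pou3f3. Cells were transiently transfected with 1.5 ug of an expression construct for a short hairpin RNA (shRNA), either a non-targeting vector (control, 3 samples) or a Dali knockdown construct (knockdown, 3 samples). Total RNA was taken 2.5 days later, and each sample was hybridised to 1 Affymetrix Mouse Gene 1.0 ST array. All cells were grown in medium with fetal bovine serum, and a single Dali construct was compared with a single control vector, so that other effects of that construct cannot be told apart from loss of Dali. RNA came from whole wells, in which fewer cells with a transcript and less of it per cell cannot be told apart.

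In vesicle release, a SNARE protein of the vesicle (VAMP) pairs with SNARE proteins of the target membrane (a syntaxin and a SNAP protein) and pulls both membranes together. Syntaxin-binding proteins, Munc13 and RIM prepare this complex, complexins clamp and promote it, synaptotagmins sense calcium, and after fusion the ATPase NSF with its attachment proteins takes it apart for another round. Synapsins, synaptophysin and SV2 proteins sit on the vesicle, and granins are packed into the dense core granules by which neuroendocrine cells, such as those of the sympathoadrenal lineage, release peptides and amines.

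The data are log2 values after robust multi-array averaging (RMA), on which 1 unit is a 2-fold difference. A probe set was called where its fold reached 1.3 and its limma adjusted p lay under 0.1, among the 11705 annotated probe sets whose spread over arrays exceeded the median, and "rose" and "fell" are used only of called genes. Levels of different probe sets are not comparable, so differences between groups were taken within a gene. Level was otherwise used only to tell dim probe sets from bright ones and in sums over the same probe sets. Among neuronal markers, Stmn2 lay between 13.42 and 13.55, Prph between 13.00 and 13.21 and Uchl1 between 12.97 and 13.12 over the 6 arrays. The neurofilament genes Nefl and Nefm lay between 5.88 and 6.29, below the mean of 6.76 under which a probe set was counted as dim. Of 11 neuronal markers measured none was called, 3 were tested, and the median difference was -0.049. Their linear level, summed over the same 11 probe sets in each array and set mostly by the bright ones, was 41725 to 43659 in control and 40667 to 41462 in knockdown arrays, which do not overlap, and its part in the results below was not tested. Of 22 markers of astrocytes, oligodendrocytes, microglia, endothelium and fibroblasts measured none was called either. Only 2 of each list were tested, or 4 for fibroblasts, and 1.14% of all probe sets tested were called. Summed levels of these lists overlapped between the groups.

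Most of the 78 genes had a slightly lower mean in knockdown cells, but few single differences passed the test. Of the 78 genes 53 (67.9%) had a lower mean in knockdown cells, against 45.0% of all genes, and the median difference, knockdown minus control, was -0.076 against 0.016 for all genes. In arrays of one replicate number the median was -0.082, -0.064 and -0.103, against 0.052, -0.004 and -0.023 for all genes. All genes were not matched to the 78 for brightness, and its part in these comparisons was not tested. All knockdown arrays lay below all control arrays for 21 of the 78 genes, against 7.11% of all genes, and above them for 6, against 8.47%, with 15.6% of all genes standing apart in either direction. The variance filter kept 37 genes for testing and removed 41. One of the 37 was called, Nsf, which rose (1.14% of all probe sets tested were called, 0.367% as higher and 0.769% as lower). Of the 37 genes tested, 5 had all knockdown arrays above all control arrays, against 9.55% of the probe sets tested, and 14 had all below, against 8.86%. An unadjusted p under 0.05 was found for 22 of the 78 genes, 17 of them lower, and for 11.1% of all genes. The differences ran from -0.60 to 0.55.

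**Figure D1:**
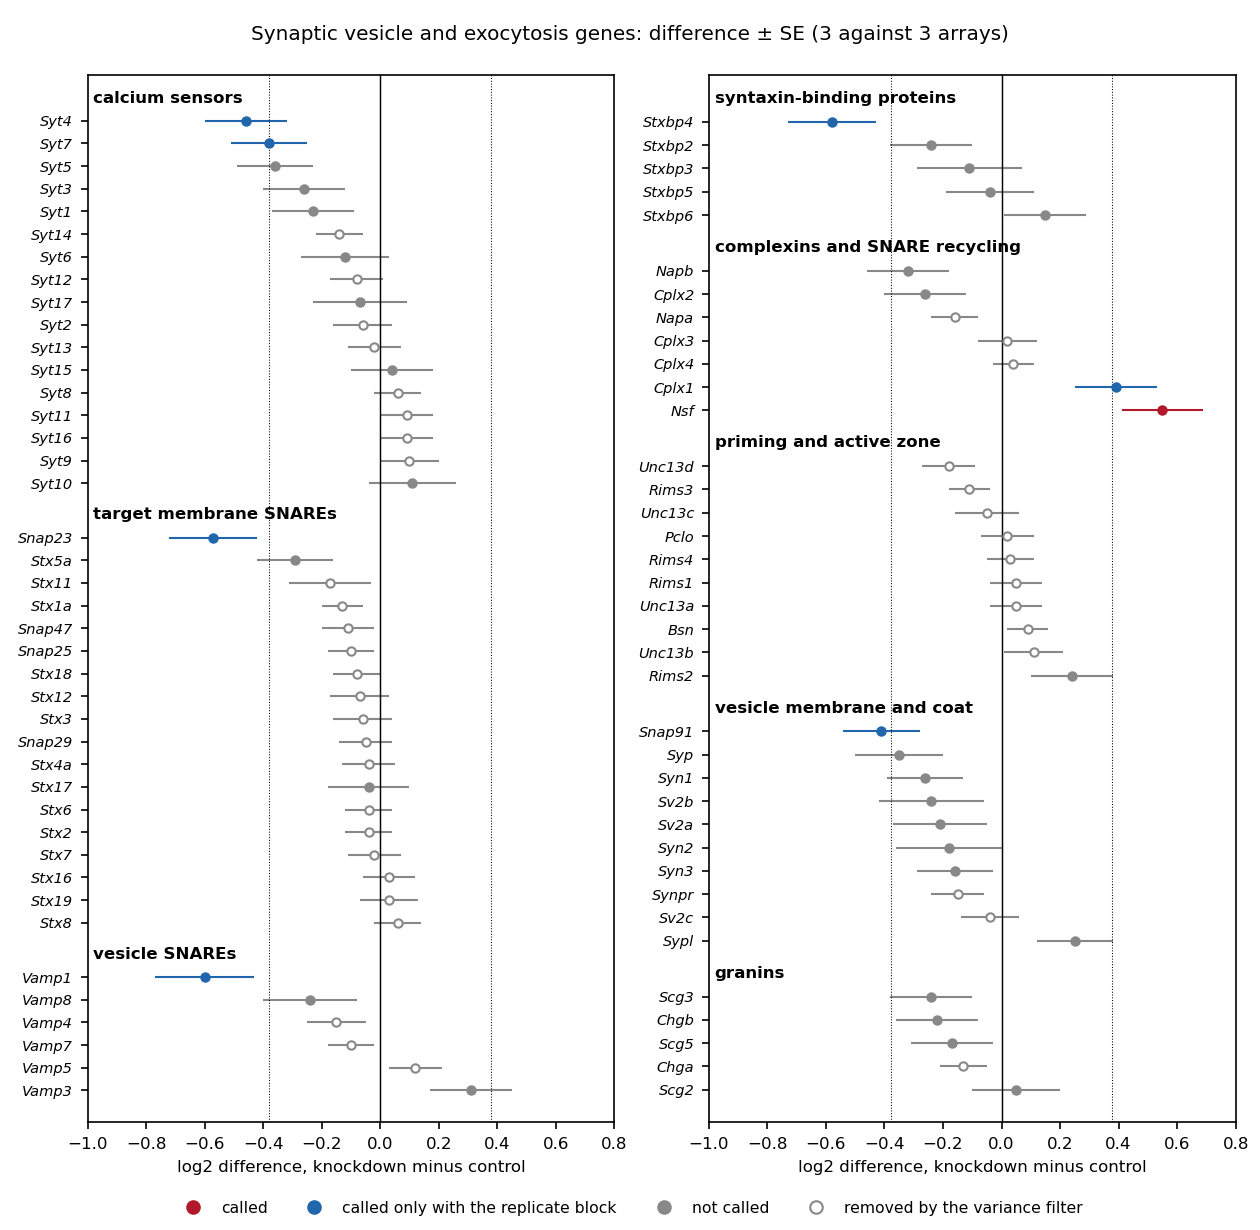
Knockdown minus control on the log2 RMA scale (horizontal axis) for each of 78 genes grouped by role, drawn as points with the SE of the limma fit. Filled points were tested, open points were removed by the variance filter and come from the unfiltered fit, colours mark the calls, and dotted lines mark the 1.3-fold threshold. Vamp1 lies lowest at -0.60 and Nsf highest at 0.55, and the points of the vesicle membrane group lie left of 0 except Sypl.

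The arrays carry replicate numbers 1 to 3 in both groups. Deviations from the group mean correlated by 0.646 and 0.655 between arrays of number 2 and 3, but by 0.141 for number 1. Control replicate 1 correlated more with knockdown replicate 2 (0.202). With the replicate number as a block in the limma fit 8 of the 37 genes were called (7.65% of all probe sets tested). Of these, Nsf and Cplx1 rose and Vamp1, Stxbp4, Snap23, Syt4, Snap91 and Syt7 fell, with 2.77% of all probe sets called as higher and 4.89% as lower. Nsf was the 1 gene called by both fits. With the block and no fold threshold, 22.1% of all probe sets tested had a limma adjusted p under 0.1. The same held for 18 of the 37 genes, 14 of them lower and 4 higher. The block leaves 2 residual degrees of freedom in place of 4, so its SE rests on fewer values. With the block and without the arrays of number 1, 2 or 3 (chosen after seeing the data), 8, 9 and 8 genes were called. The share of all probe sets called by these fits is not given here, and they leave fewer than 2 residual degrees of freedom. Nsf, Vamp1, Stxbp4, Snap23, Syt4 and Snap91 were called in each of these 3 fits, whereas Cplx1 and Syt7 were not called without number 3.

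To show where transcription of these genes starts, the 200 bases before the RefSeq start (GRCm38.p6) are given, 5′ to 3′. They cover 6 of the 8 genes, all but Syt4 and Syt7. The first pair rose and the other 4 fell with the block. Capitals mark matches, on either strand, to any of 7 short motifs: the cAMP response element TGACGTCA, E2F sites TTTCCCGC or TTTGGCGC, the NRF1 site, the GC box GGGCGG, the octamer ATGCAAAT read by POU factors, the E-box CACGTG and the left arm TTCAGCACC of the element bound by the neuronal repressor REST.
Nsf (chr11:103954057-103954256, minus strand): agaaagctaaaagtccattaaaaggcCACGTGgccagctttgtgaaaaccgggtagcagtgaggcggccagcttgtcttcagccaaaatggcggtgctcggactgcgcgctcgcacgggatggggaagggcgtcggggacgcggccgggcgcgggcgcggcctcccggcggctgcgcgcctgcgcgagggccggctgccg
Cplx1 (chr5:108550028-108550227, minus strand): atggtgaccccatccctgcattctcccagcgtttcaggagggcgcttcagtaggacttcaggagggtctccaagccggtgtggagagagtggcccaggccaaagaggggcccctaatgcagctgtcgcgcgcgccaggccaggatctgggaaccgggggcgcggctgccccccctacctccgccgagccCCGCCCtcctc
Vamp1 (chr6:125215381-125215580, plus strand): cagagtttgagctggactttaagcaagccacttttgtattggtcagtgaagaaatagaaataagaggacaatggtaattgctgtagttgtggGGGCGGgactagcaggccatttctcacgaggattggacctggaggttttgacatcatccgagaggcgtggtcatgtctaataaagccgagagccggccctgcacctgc
Snap23 (chr2:120567471-120567670, plus strand): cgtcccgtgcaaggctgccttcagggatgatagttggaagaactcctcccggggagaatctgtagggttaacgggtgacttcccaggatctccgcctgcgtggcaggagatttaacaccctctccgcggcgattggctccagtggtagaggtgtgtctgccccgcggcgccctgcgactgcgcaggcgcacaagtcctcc
Snap91 (chr9:86880709-86880908, minus strand): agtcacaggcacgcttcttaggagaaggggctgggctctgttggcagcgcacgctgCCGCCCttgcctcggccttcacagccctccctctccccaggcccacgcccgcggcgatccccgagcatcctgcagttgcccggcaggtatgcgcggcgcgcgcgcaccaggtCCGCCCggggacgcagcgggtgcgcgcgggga
Stxbp4 (chr11:90638109-90638308, minus strand): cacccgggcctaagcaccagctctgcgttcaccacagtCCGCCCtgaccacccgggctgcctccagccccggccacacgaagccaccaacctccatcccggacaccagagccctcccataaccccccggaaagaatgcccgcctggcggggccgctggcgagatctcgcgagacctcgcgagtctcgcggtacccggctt
The GC box stands before Cplx1, Vamp1, Snap91 (2 matches) and Stxbp4, the E-box before Nsf, and none of the 7 motifs before Snap23. GC content was 69.0% for Nsf, 68.5% for Cplx1, 49.5% for Vamp1, 62.5% for Snap23, 73.5% for Snap91 and 69.5% for Stxbp4. Of 81 promoter entries for 64 of the 78 genes, 55.6% held a GC box, against 31.0% of 32851 entries in all, and 12.3% held the E-box, against 5.26%. The cAMP response element was found in 4.94%, before Chgb, Scg2, Stxbp3 and Syn1, against 1.47%. The octamer stood in 1.23% (Synpr) against 1.38% and the REST arm in 0 of 81 against 0.237%. Median GC content was 64.0% for these entries and 53.0% for all, and GC-rich motifs are met more often in GC-rich sequence. A match is a description of the letters and no evidence of binding.

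Nsf, the ATPase that separates used SNARE complexes, was the one gene called without the block. It read 10.79, 10.64 and 10.59 in control replicates 1 to 3 and 11.27, 11.09 and 11.31 in knockdown replicates 1 to 3. All knockdown arrays lay above all control arrays, and the gap was widest in number 3. Nsf rose 1.46-fold, from 10.68 ± 0.10 to 11.22 ± 0.11 (SD, n = 3), a difference of 0.55 (SE 0.14, 95% interval 0.26 to 0.84, limma adjusted p = 0.0892, or 0.012 with the block). The size of the rise held when any 1 array was left out (0.51 to 0.61), but the call lies near the threshold and was lost in several fits. The adjusted p was 0.125 without the variance filter, 0.153 and 0.316 without control replicates 1 and 2, and 0.35 and 0.213 without knockdown replicates 1 and 3. Without control replicate 3 or knockdown replicate 2 it was 0.0549 and 0.03.

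The attachment protein genes had lower means and were not called by either fit on all 6 arrays. Napb, a brain form of the attachment protein, read 11.30, 11.35 and 10.97 in control and 10.93, 10.82 and 10.92 in knockdown arrays, so that the groups stood apart in the opposite direction by a narrow gap (difference -0.32, limma adjusted p = 0.363, or 0.0849 with the block at 1.24-fold). With the block and without number 3 Napb was called (difference -0.45, adjusted p = 0.039). Napa, its widely expressed relative, also had every knockdown array below every control array, with a difference of -0.16. The complexins, small proteins that bind the assembled SNARE bundle, differed in direction. Cplx1 read 10.88, 10.71 and 10.50 in control and 11.14, 10.99 and 11.12 in knockdown arrays, all higher, with a difference of 0.39 (SE 0.14, adjusted p = 0.247). With the block Cplx1 rose 1.31-fold (adjusted p = 0.0388). Cplx2 lay lower in all knockdown arrays, at 8.52, 8.59 and 8.85 in control and 8.4, 8.35 and 8.45 in knockdown arrays, a difference of -0.26 (adjusted p = 0.469). With the block its adjusted p was 0.0902, but at 1.19-fold it stayed under the fold threshold. Cplx3 and Cplx4 were removed by the filter and differed by 0.02 and 0.04. In all, 3 of the 7 genes of this group had a lower mean.

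**Figure D2:**
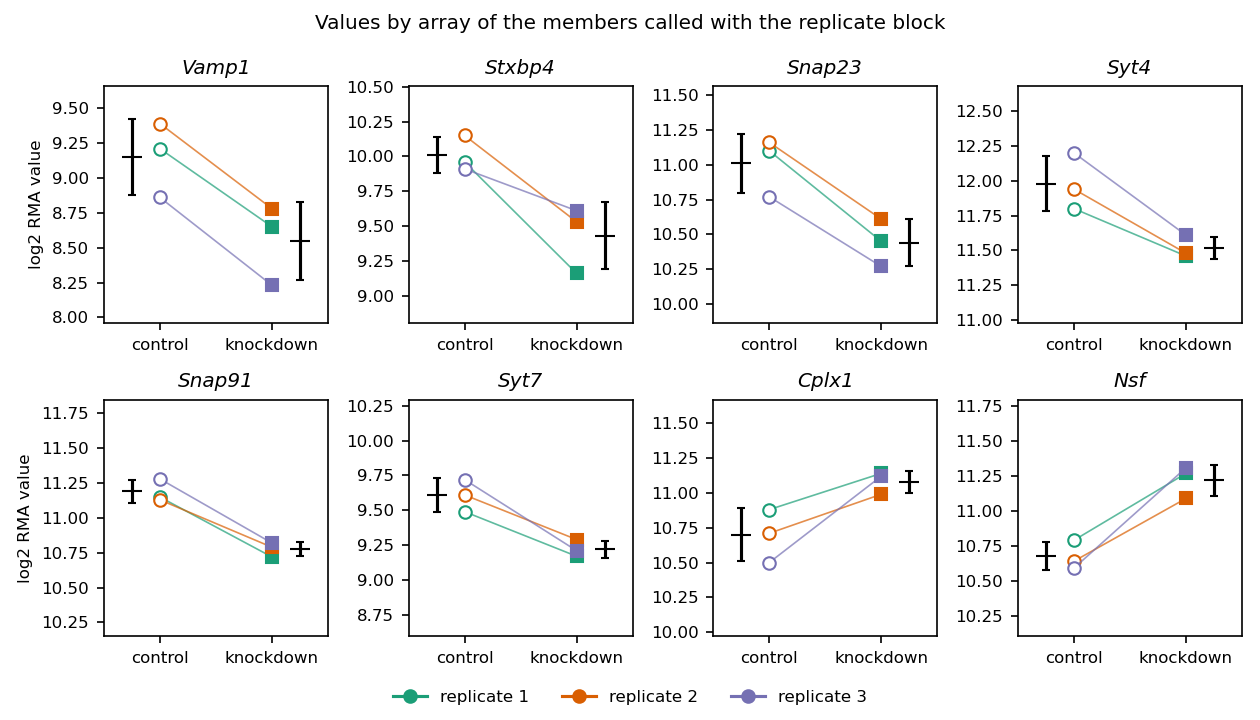
Log2 RMA values by array (vertical axis, each panel spanning the same range) of the 8 genes called with the replicate block, with control arrays as open circles, knockdown arrays as filled squares, lines joining arrays that share a number, and bars in black for the group mean and SD (n = 3). In each of the 8 panels the groups stand apart, and in Vamp1 the arrays of number 3 lie lowest in both groups (8.86 and 8.23).

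Among vesicle SNAREs the lowest difference of all 78 genes was that of Vamp1, a vesicle SNARE of fast synapses and of spinal cord and motor neurons. Its values were 9.21, 9.39 and 8.86 in control and 8.65, 8.78 and 8.23 in knockdown arrays. The groups did not overlap, and within each group number 3 was lowest. The difference was -0.60 (SE 0.17, limma adjusted p = 0.126), and it was -0.55, -0.61 and -0.63 in the 3 pairs. With the block Vamp1 fell 1.51-fold (95% interval -0.78 to -0.42, adjusted p = 0.00891). Vamp3, or cellubrevin, which acts in recycling endosomes of most cells, lay the other way in all arrays (11.34 ± 0.07 to 11.66 ± 0.13, SD, n = 3). Its difference of 0.31 had an adjusted p of 0.346, or 0.0431 with the block, at 1.24-fold. Of the others, Vamp4 (-0.15), Vamp7 (-0.10) and Vamp8 (-0.24) had lower means and Vamp5 a higher one (0.12), and none was called by either fit. Vamp2, the main vesicle SNARE of the brain, was not analysed here.

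Target membrane SNAREs were lower in mean for 15 of 18 genes, with a median of -0.054. The leading one was Snap23, the SNAP protein that non-neuronal cells use in place of Snap25. Snap23 read 11.10, 11.16 and 10.77 in control and 10.45, 10.61 and 10.27 in knockdown arrays, with no overlap. It differed by -0.57 (SE 0.15, limma adjusted p = 0.106) and fell 1.48-fold with the block (adjusted p = 0.00929). Snap25, the neuronal form, lay far closer between the groups, at 13.03, 13.14 and 13.04 against 12.96, 12.97 and 12.97. Every knockdown array was lower, but the difference was -0.10 (95% interval -0.28 to 0.07, adjusted p = 0.732 in the fit without the filter). Snap47 differed by -0.11 and Snap29 by -0.05.

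Of 14 syntaxins, 12 were removed by the variance filter for little spread over the arrays, and none was called by either fit. Stx1a, the plasma membrane syntaxin of synapses, read 9.30, 9.32 and 9.27 in control and 9.15, 9.19 and 9.15 in knockdown arrays. These values lie close within each group and apart between them, with a difference of -0.13 (95% interval -0.30 to 0.04, limma adjusted p = 0.608). Stx5a, a syntaxin of the Golgi, differed by -0.29 and in every pair by nearly the same amount (-0.31, -0.29 and -0.26). Its adjusted p was 0.383, or 0.0498 with the block, at 1.22-fold. The other syntaxins, which serve the plasma membrane, endosomes, lysosomes and the endoplasmic reticulum, differed by -0.17 (Stx11) to 0.06 (Stx8).

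Stxbp4, or Synip, known for binding the plasma membrane syntaxin 4, had 2 probe sets that disagreed. The one with the higher mean read 9.96, 10.15 and 9.91 in control and 9.16, 9.53 and 9.61 in knockdown arrays, without overlap, the widest gap being in number 1. It differed by -0.58 (SE 0.15, limma adjusted p = 0.105) and fell 1.49-fold with the block (adjusted p = 0.0168). The other differed by -0.15 with overlapping groups, and its adjusted p was 0.706, or 0.25 with the block. Of the remaining syntaxin-binding genes, Stxbp2 differed by -0.24, Stxbp3 by -0.11, Stxbp5, the inhibitor tomosyn, by -0.04, and Stxbp6, or amisyn, by 0.15, and none was called.

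Synaptotagmins were lower in part, and 2 of the 9 tested fell with the block (4.89% of all probe sets tested). Of the 17 genes 11 had a lower mean, the median was -0.073, and 4 (23.5%, against 7.11% of all genes) had all knockdown arrays below all control arrays while none had all above (8.47% of all genes). Syt4, which lacks the usual calcium binding and sits on dense core vesicles, read 11.80, 11.94 and 12.20 in control and 11.46, 11.48 and 11.61 in knockdown arrays. The groups stood apart, with a difference of -0.46 (SE 0.14, limma adjusted p = 0.163), and with the block Syt4 fell 1.38-fold (adjusted p = 0.0172). Syt7, a slow high-affinity calcium sensor of granule release, read 9.49, 9.61 and 9.72 in control and 9.17, 9.29 and 9.21 in knockdown arrays. It differed by -0.38 (SE 0.13, adjusted p = 0.227) and fell with the block (adjusted p = 0.0278), just past the fold threshold. Syt5 lay just short of it, at 1.29-fold, with control arrays at 11.71, 11.70 and 11.72 and knockdown arrays at 11.25, 11.33 and 11.46. Its adjusted p was 0.246, or 0.0298 with the block, and with the block and without number 3 it was called (difference -0.41, adjusted p = 0.0546).

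Syt1, the fast calcium sensor of synaptic release, was less separated. It read 12.89, 13.03 and 13.08 in control and 12.75, 12.91 and 12.65 in knockdown arrays, which overlap, and differed by -0.23 (SE 0.14, limma adjusted p = 0.512, or 0.136 with the block). Syt3, a plasma membrane sensor, differed by -0.26 (adjusted p = 0.472, or 0.0726 with the block, at 1.20-fold). The remaining 12 synaptotagmins differed by -0.14 (Syt14) to 0.11 (Syt10), and none was called by either fit. Among the 17 genes, 8 were lower in the knockdown array of all 3 pairs and none was higher in all 3.

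Genes of the vesicle membrane and coat had the lowest median of the 8 roles, -0.192, with 9 of 10 lower in mean. Snap91, or AP180, an adaptor that gathers clathrin when vesicle membrane is retrieved and no SNARE despite its symbol, read 11.15, 11.13 and 11.28 in control and 10.72, 10.79 and 10.82 in knockdown arrays. The groups were far apart relative to their spread, at a difference of -0.41 (SE 0.13, limma adjusted p = 0.178), and with the block Snap91 fell 1.33-fold (adjusted p = 0.0191). Syp, synaptophysin, a membrane protein by which synaptic vesicles are often recognised, read 10.08, 10.34 and 10.20 in control and 9.68, 10.16 and 9.73 in knockdown arrays. These groups overlap through knockdown replicate 2. The difference was -0.35 (SE 0.15, adjusted p = 0.353), the adjusted p with the block was 0.0419 at 1.27-fold, and without knockdown replicate 2 the difference was -0.499 and passed both thresholds (adjusted p = 0.0778).

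Syn1, a synapsin that tethers vesicles to actin, read 10.49, 10.32 and 10.35 in control and 10.02, 10.19 and 10.16 in knockdown arrays, all lower. Its difference was -0.26 (SE 0.13, limma adjusted p = 0.442, or 0.105 with the block), and those of Syn2 and Syn3 were -0.18 and -0.16. Sv2a, a vesicle glycoprotein, overlapped between the groups, since knockdown replicate 2 (10.62) lay above all control arrays (10.35, 10.61 and 10.55). It differed by -0.21 (SE 0.16, adjusted p = 0.65). Sv2b differed by -0.24, Sv2c by -0.04 and Synpr by -0.15. The exception was Sypl, the widely expressed relative of synaptophysin, at 10.36, 10.49 and 10.48 in control and 10.71, 10.68 and 10.68 in knockdown arrays, a difference of 0.25 with all knockdown arrays above (adjusted p = 0.459, or 0.0835 with the block, at 1.19-fold).

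The priming and active zone genes were not lower on the whole. Of 10 genes 3 had a lower mean, the median was 0.038, 9 were removed by the variance filter, and none was called by either fit. Control means of Pclo (6.74), Rims1 (7.21), Unc13b (7.06) and Unc13c (7.64) lay below the median of every array. Whether brightness shapes the median difference of this group was not tested. Unc13a, or Munc13-1, which opens syntaxin for SNARE assembly, read 11.68, 11.70 and 11.60 in control and 11.69, 11.84 and 11.60 in knockdown arrays, a difference of 0.05 (95% interval -0.16 to 0.25). Its other 2 probe sets differed by 0.08 and -0.03. Rims1 overlapped between the groups as well, at 7.21 ± 0.11 and 7.26 ± 0.07 (SD, n = 3). Rims2, another RIM scaffold that links vesicles to calcium channels, read 10.27, 9.99 and 10.17 in control and 10.42, 10.38 and 10.34 in knockdown arrays, higher throughout, with a difference of 0.24 (SE 0.14, limma adjusted p = 0.496, or 0.108 with the block). The large scaffolds Bsn and Pclo differed by 0.09 and 0.02. Unc13c had 7 probe sets, with control means from 3.69 to 7.64 and differences of -0.10 to 0.05.

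**Figure D3:**
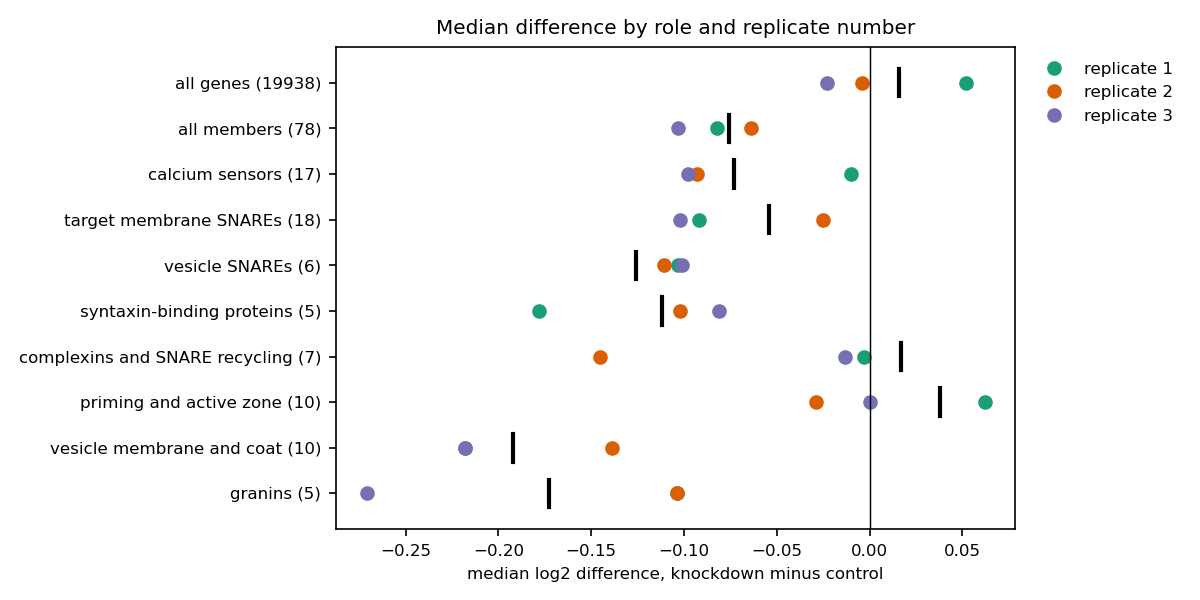
Medians over the genes of each role of knockdown minus control (horizontal axis, log2 RMA scale), with the number of genes after each name. Each coloured point stands for the pair of arrays with one number (numbers 1 and 3 coincide for the vesicle membrane and coat group, and numbers 1 and 2 for granins), and a black bar for the difference between group means. The vesicle membrane group lies at -0.218, -0.139 and -0.218 and the priming and active zone group at 0.062, -0.029 and 0.

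Granins, the bulk cargo of dense core granules, were lower in mean for 4 of 5 genes, with a median of -0.173, and none was called by either fit. Chga, chromogranin A, read 13.10, 13.25 and 13.24 in control and 13.06, 13.08 and 13.06 in knockdown arrays, and Chgb 13.32, 13.41 and 13.48 against 13.18, 13.30 and 13.06. In both genes every knockdown array lay below every control array by a small step. The differences were -0.13 (95% interval -0.31 to 0.05, limma adjusted p = 0.638) and -0.22 (-0.50 to 0.07, adjusted p = 0.532). Scg3, which helps to sort chromogranins into granules, read 12.38, 12.64 and 12.56 against 12.22, 12.35 and 12.29, a difference of -0.24 (adjusted p = 0.483, or 0.0811 with the block, at 1.18-fold). Scg2, the precursor of the peptide secretoneurin, did not share the direction, at 11.69, 11.89 and 12.10 in control and 11.80, 11.98 and 12.03 in knockdown arrays (difference 0.05, 95% interval -0.26 to 0.35). Scg5, a chaperone of a granule protease, differed by -0.17.

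Arrays of number 3 stood low together for some of these genes. Both arrays of number 3 were the lowest of their group for 19 of the 78 genes (24.4%, against 18.4% of all genes) and the highest for 9 (11.5%, against 20.4%). Stxbp3 read 8.92, 9.04 and 8.45 in control and 8.74, 8.96 and 8.37 in knockdown arrays, so that number 3 stood apart by more than the groups did. The pattern of Syn2 was alike, at 12.07, 12.22 and 11.64 against 11.86, 12.06 and 11.47. In such genes the spread between numbers sets the SE of the fit without the block. For Syn2 the adjusted p was 0.762, or 0.165 with the block, with a lower value in the knockdown array of all 3 pairs. Across the 78 genes, 37 were lower in all 3 pairs (47.4%, against 19.9% of all genes) and 8 were higher in all 3 (10.3%, against 21.5%).

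**Figure D4:**
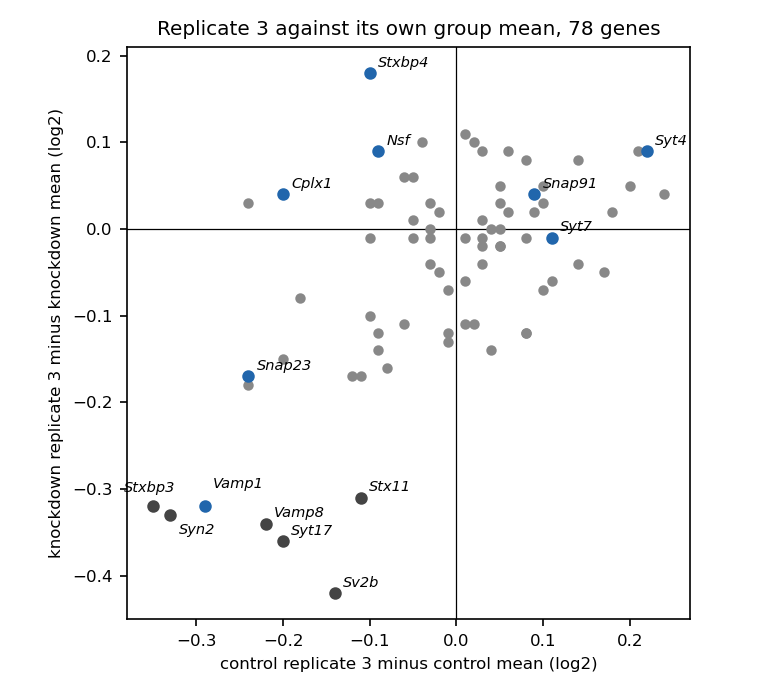
Deviation of replicate 3 from its own group mean on the log2 scale, in control (horizontal axis) and knockdown cells (vertical axis), for 78 genes, each as a point. Blue points are the 8 genes called with the replicate block and dark points other genes far below the knockdown mean. Vamp1, Syn2, Stxbp3, Vamp8, Syt17, Stx11 and Sv2b lie low in both groups, whereas Nsf and Stxbp4 lie low in control and high in knockdown cells.

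Most other genes of the vesicle cycle and of secretory granules had lower means too, and none was called without the block. Of 99 genes listed, which include 3 regulators of neuronal secretory genes (Rest, Rcor1 and Rcor2), 96 were measured and 54 tested. Of the 96 genes 66 had a lower mean, the median was -0.048, all knockdown arrays lay below all control arrays for 21 (21.9%, against 7.11% of all genes) and above for 3 (3.12%, against 8.47%), and 24 had an unadjusted p under 0.05 (25%, against 11.1%), 21 of them lower. With the block 4 of the 54 fell and none rose, a share close to the 7.65% of all probe sets called by that fit (4.89% as lower and 2.77% as higher). Slc18a1, a vesicular monoamine transporter of endocrine cells, read 8.21, 8.51 and 7.99 in control and 7.59, 7.92 and 7.69 in knockdown arrays, without overlap, and differed by -0.50 (SE 0.16, limma adjusted p = 0.17, or 0.0175 with the block). Ston2, a stonin that sorts synaptotagmin during vesicle retrieval, read 10.84, 10.80 and 10.71 against 10.43, 10.49 and 10.29, also without overlap, with a difference of -0.38 (adjusted p = 0.222, or 0.0233 with the block). Ston2 lies at the fold threshold, and with the block it was not called without number 1 (difference -0.37) or number 3 (-0.36).

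The other pair that fell with the block were granule genes whose groups overlapped. Ptprn, or IA-2, a membrane protein of dense core granules, differed by -0.49 (limma adjusted p = 0.24, or 0.0134 with the block). Npy, a peptide transmitter of sympathetic neurons, read 10.03, 10.51 and 11.72 in control and 9.38, 10.03 and 10.54 in knockdown arrays. Number 3 was high in both groups, the difference was -0.77 (SE 0.32), and the adjusted p was 0.318, or 0.0136 with the block. The size rests on single arrays: with 1 array left out it ran from -1.13 without control replicate 1 to -0.29 without control replicate 3, where the adjusted p was 0.443. Without the block Npy was called in 2 of these 6 fits, those without control replicate 2 (0.00248) or knockdown replicate 3 (1.38e-05), both of which keep the high control replicate 3. Granule cargo and processing genes had a median of -0.334 over 11 genes, 10 of them lower in mean, among them Vgf (-0.36) and the amidating enzyme gene Pam (-0.33). The vesicle transporters had a median of 0.046 over 8 genes, with differences from -0.50 (Slc18a1) to 0.22 (Slc17a8). The 5 with a higher mean had control means of 6.11 to 7.55, below the median of every array. The bright Slc18a2 (12.95 in control and 12.71 in knockdown cells) differed by -0.24 and was lower in all 3 pairs. The exocyst, which tethers vesicles to the plasma membrane, had a median of -0.020 over 9 genes. Of these, Exoc6 (-0.38), Exoc6b (-0.36) and Exoc7 (-0.22) had all knockdown arrays below all control arrays, and none was called. Rest, which encodes the repressor of many neuronal secretory genes, read 9.0, 8.75 and 8.54 in control and 8.76, 8.87 and 8.69 in knockdown arrays, overlapping, with a difference of 0.01 (SE 0.12). Of the sympathoadrenal markers, Ddc, the decarboxylase that makes dopamine and serotonin, rose (difference 0.68, adjusted p = 0.0788), while Th (-0.25) and Dbh (-0.20) were not called.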

How the data were processed

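N2A cells transfected with a control vector or with a Dali shRNA construct were compared on 3 arrays each. Per the labels and the study's methods, the authors background corrected and quantile normalised the arrays and summarised them at gene level by RMA (oligo package), and deposited log2 values, which run from 2.76 to 14.8, with array medians of 7.86 to 7.93. The sources used here give no versions and do not say on which set of arrays the normalisation was run. Of 35556 rows, 21789 carried 1 gene symbol in the platform annotation, 1621 several and 12146 none. Rows with several symbols were given no name, which left out 2 probe sets shared by a gene of interest and another symbol.

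Here limma 3.58.1 in R 4.3.3 (lmFit and eBayes, two-sided, Benjamini-Hochberg) was fitted to the 11705 of 23410 annotated probe sets with an interquartile range above the median, 0.147. Limma, a variance filter and the 1.3-fold threshold follow the methods of the study, and reading the filter as the median was a choice made here. For genes that the filter removed, the unfiltered fit was used. Intervals are 95% intervals, and the number of arrays limits the precision. The labels call the samples biological replicates without naming cultures or days, and a p-value here reflects only how these samples vary, which may be technical. Deviations from the group mean correlated by 0.141, 0.646 and 0.655 between arrays of number 1, 2 and 3, all above 0.1. The numbers were therefore treated as pairs in the fit with the block and in counts by pair, whereas the main fit had no block. For number 1 the match was not specific, as the correlation of control replicate 1 was higher with knockdown replicate 2 (0.202). Deviations within a group cancel out, so these correlations are not independent of each other.

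The genes, lists and alternatives were chosen with earlier results of these data known. Genes named in full were 14 core genes, every gene called with or without the block, the gene with the largest difference in each of the 8 roles, and others by way of comparison, chosen after their values were seen. Of the other vesicle genes, the 2 with the smallest p and Rest were named, and the rest after their values were seen. Sequences are from RefSeq (GRCm38.p6). The fit was tested on simulated data. Whether Dali itself was depleted was not analysed here.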

Additional observations from a re-analysis of the deposited data

How the results depend on the processing

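The single call, Nsf, depended on the settings. The number of genes called was 0 without the variance filter, 0 with rows lacking a gene symbol in the filter (Nsf adjusted p = 0.4) and 0 with dim probe sets removed (0.104). It was 8 with the replicate block. With the block and without number 1, 2 or 3 it was 8, 9 and 8. These fits were added after seeing the data and are given without the share over all probe sets. It stayed at 1 with arrays centred on their medians (Nsf adjusted p = 0.0908), without the fold threshold and with the dimmest probe set of each gene. Leaving out 1 array gave 0 to 5 calls. The share of all probe sets called by these fits is not given here either, so the counts cannot be set against it. The 5, without knockdown replicate 2, were Nsf, Snap23, Stxbp4, Vamp1 and Syp, and the 4 without control replicate 3 were Nsf, Snap23, Stxbp4 and Vamp1. Without knockdown replicate 3 Stxbp4 was called in place of Nsf.

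Of the 54 other vesicle genes tested, 0 were called in the main fit and 4 with the replicate block. Those fits called 1.14% and 7.65% of all probe sets tested. With the block and without number 1, 2 or 3 the count was 5, 6 and 4. Leaving out 1 array gave 0 to 3, among them Slc18a1 and Ptprn without control replicate 3 or knockdown replicate 2. For the fits that leave out arrays, the share over all probe sets is not given, so their counts cannot be set against it. The median difference of the 78 genes, -0.076, was -0.067 after median centring and -0.09 without dim probe sets. It ran from -0.106 to -0.038 when 1 array was left out, without knockdown replicates 2 and 3 in turn, and was -0.097, -0.1 and -0.076 without number 1, 2 or 3. It was negative in every setting run.

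Over 352 pairs of a named gene and a setting, 305 kept direction and side of the threshold, 35 were newly called, 7 lost the call (all Nsf) and 5 changed sign. These were genes with differences near 0: Rims1 (-0.01 to 0.101 with 1 array left out, lowest without control replicate 1, and -0.023 with the block without number 1), Scg2 (-0.056 to 0.15, lowest without control replicate 1, and -0.002 without knockdown replicate 3) and Unc13a (-0.02 to 0.104, lowest without knockdown replicate 2). Signals of dim probe sets lie near background, which limits what can be seen there.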
